A study of Rattus norvegicus with 10 samples.

Results

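Cell cycle and DNA replication genes were examined in the renal cortex of PCK rats of both sexes. The members were 39 gene symbols named for licensing of DNA replication, DNA synthesis, mitotic cyclins and kinases, the spindle and kinetochore, exit from mitosis and general marking of cycling cells. Every row of the expression table that carried one of these symbols was taken, which gave 38 genes of the 32545 listed. *Ccnb2* (cyclin B2) was not matched to a row, so its expression was not analysed here. The rule reads only the symbol, and the symbols were chosen with earlier results of these data known. PCK rats (PCK/CrljCrl-Pkhd1pck/Crl) carry a mutation of *Pkhd1*, the gene of fibrocystin, and are used as a model of autosomal recessive polycystic kidney disease. All 10 rats carried it, and rats of another strain were not part of the comparison. The groups were 5 males and 5 females with no treatment named, and each rat gave 1 library of polyadenylated RNA from cortex that had been flushed with PBS and snap-frozen. The labels put the rats at 12 to 14 weeks of age and the methods at 10 to 12 weeks. They came from 2 litters, and the litter of each rat was not used here. The question was whether expression of these genes differed with sex.

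A cell that divides first licenses its replication origins with the MCM helicase, copies its DNA in S phase with newly made deoxynucleotides, and then builds a spindle that pulls the sister chromatids apart. E2F factors switch on the genes of replication, while the genes of mitosis are switched on later through CCAAT boxes, the cell cycle genes homology region and the factors B-Myb and FOXM1. In the adult kidney most cells are outside the cycle, and in polycystic kidneys the epithelium that lines tubules and cysts divides more often.

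Expression was read as FPKM (reads on a gene divided by its length and by a library size), a level that can be compared between genes because it is given per length. The deposited values lie on a median-ratio scale, and the library size they imply differs from the reads on genes. Libraries held 13912569 to 20285911 reads on genes in males and 14963924 to 19556707 in females. Markers of proximal tubule, thick ascending limb, distal convoluted tubule, collecting duct and podocytes were present in each library. Of the nephron markers, only *Pvalb* stayed at 3 reads or fewer throughout. Mitochondrial genes took between 14.3% and 26.8% of reads, the highest share being in female 2. This library also stood apart in 6 urothelial markers, which summed to 12.9 FPKM there and to at most 0.978 FPKM in any other library, so counts are also given without it. Between 6 and 1741 reads fell on a member in a library, all 38 passed the filter on low values, and none lies on chromosome X.

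Mean levels of the cell cycle genes were lower in females almost throughout, though 34 of the 38 members did not pass the adjusted test. Mean FPKM was lower in females for 37 of 38 members (97.4%), against 50.2% of the 17631 genes tested, and *Tyms* was the exception. The median log2 fold change of females over males, from limma on log2(FPKM + 0.1), was −0.56 over the members and −0.01 over all genes tested. Few single members passed the test over all genes. At a Benjamini-Hochberg adjusted limma p of at most 0.05, 4 members were lower in females (*Melk*, *Bub1b*, *Rrm2* and *Bub1*), which was 10.5% of the members against 1.14% of genes tested. No member was higher at this threshold, against 1.26% of genes tested. Without adjustment, 24 members were lower at a limma p of at most 0.05, against 8.07% of genes tested, and 1 (*Tyms*) was higher, against 7.67%. With a log2 fold change of at least 1 required as well, *Melk* and *Bub1b* were left, and the shares of all genes tested were 0.698% lower and 0.618% higher. In bulk cortex, fewer dividing cells and less of these RNAs per cell cannot be told apart.

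The ranges of the sexes did not overlap for 9 members, each with all 5 females below all 5 males. These were *Mcm5*, *Rrm2*, *Ccnb1*, *Aurkb*, *Melk*, *Bub1*, *Bub1b*, *Kif20a* and *Tpx2*, or 23.7% of the members, against 2.6% of genes tested that were lower in this way. None was higher with separate ranges, against 2.5% of genes tested. A two-sided exact permutation test on mean FPKM gave an unadjusted p of at most 0.05 for 21 members that were lower (55.3%, against 7.38% of genes tested) and for none that was higher (against 7.45%). The smallest p that 5 rats against 5 allow is 0.00794, and the 9 members with separate ranges had it. The members are read in the same 10 libraries and are not independent of each other. Without female 2, ranges were separate with females lower for 14 members, where 4.51% of genes tested were, and 6 members passed the adjusted limma test as lower, against 1.51% of genes. With fewer rats, ranges separate more often in any gene. Without female 1, male 2, male 3 or male 4, left out singly, 2 members passed, against 0.958%, 0.72%, 0.782% and 0.76% of genes.

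**Figure D1:**
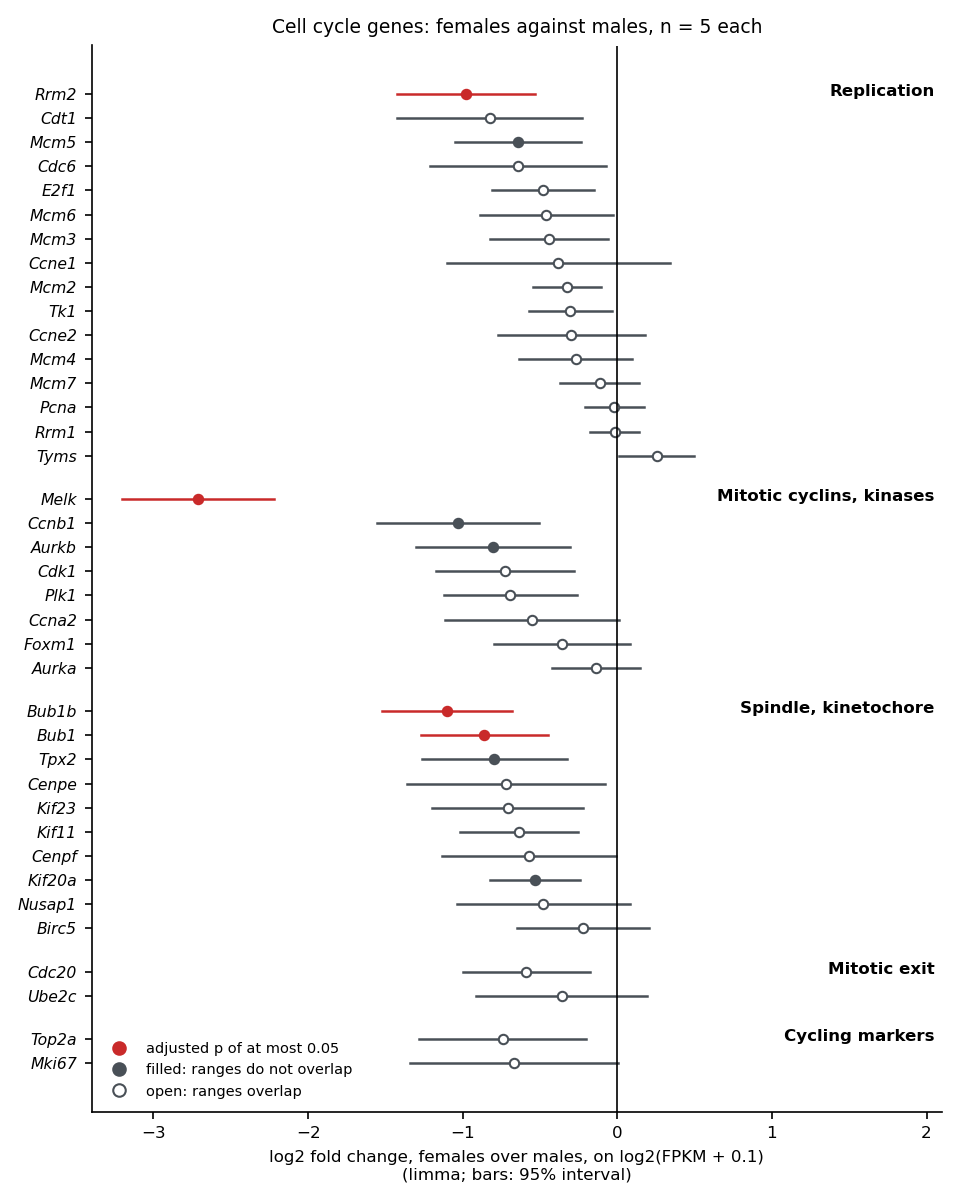
Log2 fold change of females over males on log2(FPKM + 0.1) for each of 38 members, grouped by role, with 95% intervals from limma (n = 5 per sex). Red points have an adjusted p of at most 0.05, filled points have ranges that do not overlap, and all points but that of *Tyms* lie left of 0, with *Melk* far from the others at −2.71.

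The promoters of the members were searched for the words of cell cycle promoters. RefSeq windows on the build GRCr8, from 250 bases before to 50 bases after the start site, were at hand for 29 of the 39 symbols (28 with an expression row, and *Ccnb2*), and *Rrm2*, *Aurkb* and *Tpx2* were among those without one. The words were CCAAT for the CCAAT box, TTTGAA and TTCGAA for the cell cycle genes homology region, and TTTCGCGC, TTTGGCGC, TTTCCCGC and TTTGCCGC for an E2F site, each on both strands. A CCAAT box was in 20 of the 29 windows (69%) and in 37.5% of 33469 rat promoters of the same length. At least 2 CCAAT boxes were in 13 windows (44.8%), against 11.2% of all promoters. A homology region was in 14 windows (48.3%, against 19.7%), and 12 held it together with a CCAAT box (41.4%, against 7.95%). An E2F word was in 8 windows (27.6%, against 2.14%), and these included all 5 *Mcm* genes with a window.

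Windows of 4 members with separate ranges are given in full because they differ in these words. That of *Ccnb1* is chr2:33655176-33655475 on the minus strand, with 2 CCAAT boxes that begin at −82 and −50 from the start site. That of *Mcm5* is chr19:13488563-13488862 on the plus strand, with CCAAT boxes at −137, −82 and −54 and E2F words at −213, −209 (on the reverse strand, overlapping the one before it) and −8. That of *Bub1b* is chr3:126016817-126017116 on the plus strand, with homology regions at −225 and −4. That of *Melk* is chr5:63335901-63336200 on the plus strand and held none of the words searched. Capitals mark these words, and a match is a description of the letters and not a site of binding.
Ccnb1: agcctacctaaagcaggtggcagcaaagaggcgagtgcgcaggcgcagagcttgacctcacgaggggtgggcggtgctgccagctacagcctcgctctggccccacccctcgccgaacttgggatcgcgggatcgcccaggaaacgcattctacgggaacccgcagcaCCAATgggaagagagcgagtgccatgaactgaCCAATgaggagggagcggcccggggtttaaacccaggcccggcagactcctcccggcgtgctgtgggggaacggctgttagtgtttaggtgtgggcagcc
Mcm5: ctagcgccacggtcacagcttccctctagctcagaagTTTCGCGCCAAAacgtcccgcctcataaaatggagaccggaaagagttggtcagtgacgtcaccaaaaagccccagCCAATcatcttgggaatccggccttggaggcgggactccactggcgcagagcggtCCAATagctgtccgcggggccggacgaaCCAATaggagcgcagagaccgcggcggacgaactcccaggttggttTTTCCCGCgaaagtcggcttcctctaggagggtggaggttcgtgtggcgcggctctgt
Bub1b: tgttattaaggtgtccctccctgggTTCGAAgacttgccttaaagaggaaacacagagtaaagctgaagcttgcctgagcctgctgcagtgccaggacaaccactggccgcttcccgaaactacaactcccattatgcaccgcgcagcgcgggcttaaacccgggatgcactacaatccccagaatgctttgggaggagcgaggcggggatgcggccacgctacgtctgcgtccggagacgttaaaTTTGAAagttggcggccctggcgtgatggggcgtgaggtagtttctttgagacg
Melk: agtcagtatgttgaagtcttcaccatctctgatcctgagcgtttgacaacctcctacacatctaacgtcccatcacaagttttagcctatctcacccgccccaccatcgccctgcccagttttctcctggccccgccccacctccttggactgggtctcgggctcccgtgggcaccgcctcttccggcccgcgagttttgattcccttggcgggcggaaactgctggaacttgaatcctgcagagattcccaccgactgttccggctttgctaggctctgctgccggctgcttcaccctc

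Among the 16 genes of replication licensing and DNA synthesis, 15 were lower in females, with a median log2 fold change of −0.35. Of the 16, 1 passed the adjusted test as lower and 2 had separate ranges with females lower, against 1.14% and 2.6% of genes tested. The gene that passed was *Rrm2* (ENSRNOG00000054286, chromosome 6, 43884678 to 43889515 of Rnor_6.0, plus strand), the S phase subunit of ribonucleotide reductase, which makes the deoxynucleotides for DNA. It was at 2.49, 4.5, 3.37, 3.77 and 2.67 FPKM in males 1 to 5 and at 1.22, 2.0, 2.12, 1.59 and 1.34 FPKM in females 1 to 5. The highest female, female 3, was thus below the lowest male, male 1. The means were 3.36 ± 0.821 and 1.65 ± 0.397 FPKM (SD, n = 5 each), a difference of −0.98 on the log2 scale (SE 0.20, limma adjusted p = 0.0301). The call was lost under 7 of 21 alternatives, namely quantile normalization and the omission of female 1, female 4, female 5, male 2, male 3 or male 4, with a limma adjusted p of up to 0.0818. *Rrm1*, the large subunit that is kept outside S phase as well, was at 17.0 ± 1.02 FPKM in males, against 16.8 ± 1.04 FPKM in females (SD, n = 5). Its log2 fold change of −0.02 had a 95% interval of −0.18 to 0.14. The FPKM ratio of *Rrm2* to *Rrm1*, looked at after these values were seen, was 0.149 to 0.244 in males and 0.0783 to 0.126 in females, whereas that of *Rrm2* to *Mki67* overlapped, at 1.03 to 2.08 in males and 0.657 to 1.88 in females.

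*Mcm5*, one subunit of the replicative helicase, also had separate ranges. Its values were 3.38, 2.76, 3.42, 2.83 and 3.33 FPKM in males, against 1.92, 2.54, 2.45, 1.23 and 1.99 FPKM in females. Female 4 was the lowest and female 2 came closest to the males. The log2 fold change was −0.64 (SE 0.18), with a limma adjusted p of 0.108 that missed the threshold and an exact permutation p of 0.00794. The other helicase subunits differed less on the log2 scale, with fold changes of −0.33 for *Mcm2*, −0.44 for *Mcm3*, −0.27 for *Mcm4*, −0.46 for *Mcm6* and −0.12 for *Mcm7*. None of these 5 passed the adjusted limma test, and of them the exact permutation test gave a p of at most 0.05 for *Mcm2* (0.0159) and *Mcm3* (0.0476).

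The factors that act before the helicase were lower in mean level in females too. *E2f1*, the transcription factor that drives replication genes, was at 1.12, 1.49, 1.34, 1.57 and 1.38 FPKM in males and at 0.846, 0.913, 1.16, 0.902 and 0.975 FPKM in females. Only female 3 reached into the male range, and the log2 fold change was −0.48 (SE 0.15, limma adjusted p = 0.137). *Cdc6* and *Cdt1*, which load the helicase at origins, had log2 fold changes of −0.64 (SE 0.26) and −0.83 (SE 0.27), with limma adjusted p of 0.252 and 0.160. *Cdc6* was low, at 0.537 ± 0.162 FPKM in males, against 0.305 ± 0.0898 FPKM in females (SD, n = 5). The S phase cyclins differed less in proportion to their spread. *Ccne1* was at 0.665 ± 0.112 and 0.540 ± 0.296 FPKM and *Ccne2* at 2.09 ± 0.393 and 1.73 ± 0.590 FPKM in males and females (SD, n = 5 each), with limma adjusted p of 0.637 and 0.561.

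*Pcna*, the sliding clamp of DNA polymerase that also serves in repair, was the highest member by level and differed least of all together with *Rrm1*. It was at 43.7, 52.9, 44.7, 42.1 and 45.2 FPKM in males and at 39.1, 48.8, 43.8, 47.3 and 46.5 FPKM in females. The ranges overlapped widely, and the log2 fold change of −0.02 had a 95% interval of −0.21 to 0.17 (exact permutation test, p = 0.810). *Tk1*, thymidine kinase, was at 8.48 ± 1.3 FPKM in males, against 6.82 ± 0.743 FPKM in females (SD, n = 5), a difference of −0.30 on the log2 scale (limma adjusted p = 0.250). *Tyms*, thymidylate synthase, was the member with a higher mean in females, at 9.78 ± 1.34 against 8.14 ± 0.783 FPKM (SD, n = 5 each). Its log2 fold change of 0.26 had a 95% interval of 0.01 to 0.50 and a limma adjusted p of 0.289. Of these 4 genes of nucleotide supply, *Rrm2* alone passed the adjusted test.

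**Figure D2:**
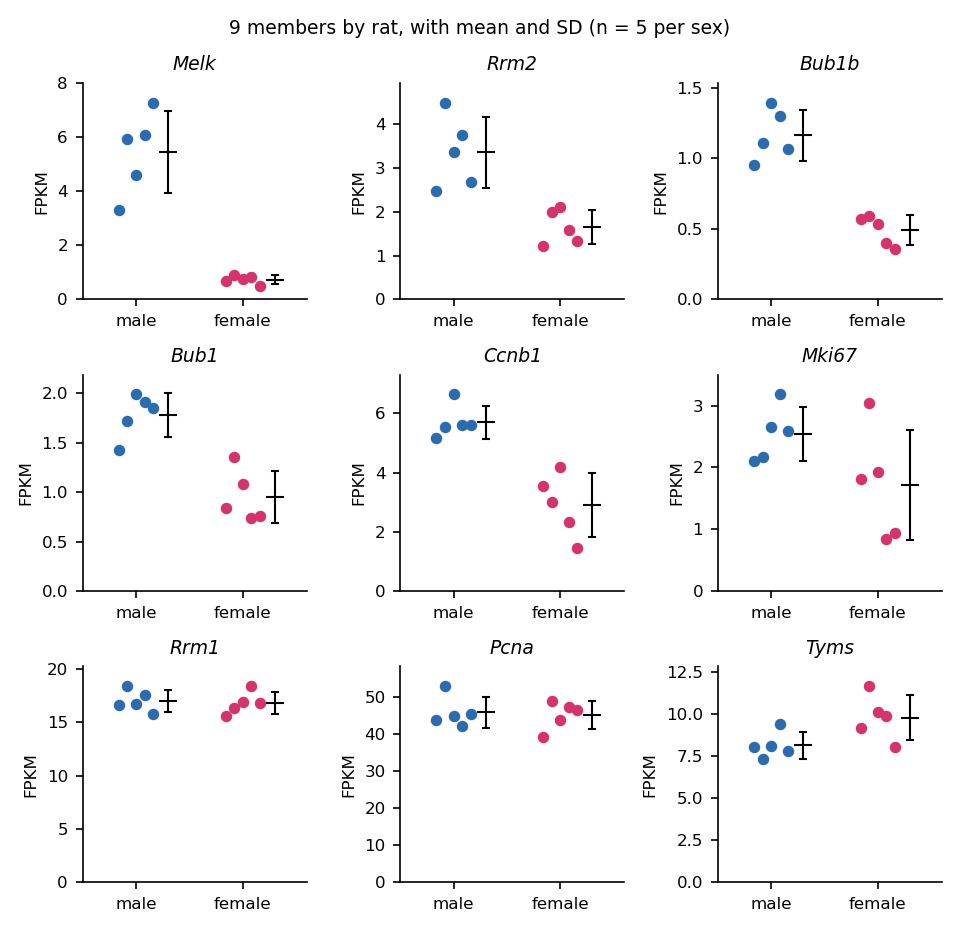
FPKM of 9 members in each rat, males in blue and females in pink, with the mean and SD of each sex beside the points (n = 5 per sex, axes from 0). *Melk*, *Rrm2*, *Bub1b*, *Bub1* and *Ccnb1* have separate ranges, while *Mki67*, *Rrm1*, *Pcna* and *Tyms* overlap, and female 2 is among the highest of all rats for *Mki67*.

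All 8 genes of the mitotic cyclins, kinases and their transcription factor were lower in mean level in females, with a median log2 fold change of −0.71. The adjusted test was passed as lower by 1 of the 8, against 1.14% of genes tested. *Melk* (ENSRNOG00000013598, chromosome 5, 59783890 to 59844356 of Rnor_6.0, plus strand) encodes a kinase of the AMPK family that is high in dividing and progenitor cells. It was at 3.31, 5.93, 4.61, 6.10 and 7.28 FPKM in males and at 0.692, 0.899, 0.751, 0.835 and 0.486 FPKM in females. Every male was several times above every female. The means were 5.45 ± 1.53 and 0.733 ± 0.159 FPKM (SD, n = 5 each), a ratio of 7.43 and a difference of −2.71 on the log2 scale (SE 0.22, limma adjusted p = 6.85e-05). The difference had a 95% interval of −3.20 to −2.22, and the next largest log2 fold change of any member was −1.10. Female 2, with 3.04 FPKM of *Mki67*, had 0.899 FPKM of *Melk*, whereas male 1, with 2.11 FPKM of *Mki67*, had 3.31 FPKM of *Melk*. The FPKM ratio of *Melk* to *Cdk1*, looked at after these values were seen, was 0.645 to 1.25 in males and 0.129 to 0.248 in females, and that of *Melk* to *Mki67* was 1.57 to 2.81 and 0.296 to 0.987. Of the 7 ratios looked at in this way, those of *Ccnb1* to *Cdk1*, *Kif11* to *Mki67* and *Mcm7* to *Mcm2* overlapped between the sexes, as did *Rrm2* to *Mki67*.

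*Ccnb1*, the cyclin whose complex with CDK1 starts mitosis, lay just past the threshold with a limma adjusted p of 0.0509. It was at 5.16, 5.53, 6.65, 5.59 and 5.61 FPKM in males and at 3.56, 3.01, 4.21, 2.32 and 1.45 FPKM in females. The ranges were separate and the log2 fold change was −1.03 (SE 0.24). Its partner *Cdk1* was at 5.01, 9.19, 7.08, 6.64 and 5.82 FPKM in males and at 2.96, 5.99, 4.28, 3.37 and 3.79 FPKM in females. Female 2 lay above males 1 and 5, so that these ranges overlapped. The log2 fold change of *Cdk1* was −0.73 (SE 0.20, limma adjusted p = 0.101).

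*Aurkb*, the kinase of the chromosomal passenger complex, was at 1.13, 1.38, 1.13, 1.33 and 1.12 FPKM in males and at 0.690, 0.758, 1.06, 0.411 and 0.499 FPKM in females. The ranges were separate, though female 3 was close to the lowest male, and the log2 fold change was −0.81 (SE 0.23, limma adjusted p = 0.101). *Aurka*, the aurora kinase of the spindle poles, differed by a log2 fold change of −0.14 with a 95% interval of −0.42 to 0.14. *Plk1*, the polo kinase of mitotic entry, was at 2.29 ± 0.529 and 1.37 ± 0.281 FPKM in males and females (SD, n = 5 each, limma adjusted p = 0.102). *Ccna2*, the cyclin of S phase and early mitosis, and *Foxm1*, the factor that switches on mitotic genes, had log2 fold changes of −0.55 and −0.36, and their 95% intervals reached 0.01 and 0.08. No member of this group had a lower mean in males.

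Of the 10 genes of the spindle, kinetochore and cytokinesis, all had lower means in females, with a median log2 fold change of −0.67. Of the 10, 2 passed the adjusted test as lower and 4 had separate ranges with females lower, against 1.14% and 2.6% of genes tested. The 2 were the kinetochore genes of the spindle checkpoint, which delays anaphase until the chromosomes are attached. *Bub1b* (ENSRNOG00000007906, chromosome 3, 110367939 to 110420458 of Rnor_6.0, plus strand), which encodes BUBR1, was at 0.953, 1.11, 1.39, 1.3 and 1.06 FPKM in males and at 0.570, 0.592, 0.537, 0.402 and 0.354 FPKM in females. Its log2 fold change was −1.10 (SE 0.19, limma adjusted p = 0.0114), and the highest female was well below the lowest male. This call held under 19 of the 20 alternatives that kept the gene. It was lost with the replicate number as a block (limma adjusted p = 0.0703). *Bub1* (ENSRNOG00000032778, chromosome 3, 120373604 to 120404910, minus strand), the checkpoint kinase, was at 1.43, 1.73, 1.99, 1.91 and 1.86 FPKM in males and at 0.836, 1.36, 1.08, 0.742 and 0.755 FPKM in females. Its log2 fold change was −0.86 (SE 0.19, limma adjusted p = 0.0370), and here female 2 was just below male 1. This call was lost under 11 of 21 alternatives, among them the omission of any library but female 2 and male 1, and the limma adjusted p rose to as much as 0.106.

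*Kif20a*, a kinesin of cytokinesis, was at 3.95, 5.05, 4.85, 5.29 and 5.0 FPKM in males and at 3.67, 3.72, 3.73, 2.67 and 2.82 FPKM in females. It was separate between the sexes by a narrow gap, and differed by −0.53 on the log2 scale (SE 0.13, limma adjusted p = 0.0692). *Kif20a* overlaps *Cdc23* on the other strand, and the strand setting of the counting was not given in the sources used here. Reads from any exon stretch that the pair shares cannot be told apart, and how much exon is shared was not examined. The same holds for *Ccna2* with *Exosc9* and *Ccne2* with *Ints8*, while *E2f1*, *Birc5* and *Tpx2* also overlap a gene on the other strand and *Mcm7* holds 3 microRNA genes. *Tpx2*, which brings Aurora A to the spindle, was at 2.96, 3.32, 3.44, 3.27 and 2.94 FPKM in males and at 1.69, 2.72, 2.31, 1.6 and 1.07 FPKM in females. The log2 fold change was −0.80 (SE 0.21, limma adjusted p = 0.0881), with female 2 nearest to the males and female 5 farthest.

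*Kif11*, the motor that pushes the spindle poles apart, ranked the females in another order than most members did. It was the highest member of the mitotic genes, at 16.5 to 21.7 FPKM in males, against 8.05 to 16.8 FPKM in females, and differed by −0.64 on the log2 scale (SE 0.17, limma adjusted p = 0.0922). Female 4 had the most *Kif11* of the females (16.8 FPKM), although it had the least of many other members, and female 2 had the least (8.05 FPKM). The other genes of this group missed the threshold. *Kif23*, which acts in cytokinesis, and *Cenpe* and *Cenpf* of the kinetochore had log2 fold changes of −0.71, −0.72 and −0.57, with limma adjusted p of 0.137, 0.253 and 0.310. *Nusap1*, which bundles spindle microtubules, and *Birc5* (survivin) had log2 fold changes of −0.48 and −0.22 and limma adjusted p of 0.404 and 0.652.

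The genes of exit from mitosis are *Cdc20*, the activator of the anaphase-promoting complex, and *Ube2c*, the ubiquitin-conjugating enzyme of that complex. *Cdc20* was at 7.16 ± 1.59 FPKM in males, against 4.74 ± 1.16 FPKM in females (SD, n = 5), and differed by −0.59 on the log2 scale (SE 0.19, limma adjusted p = 0.142). *Ube2c* was at 1.46 ± 0.387 and 1.14 ± 0.444 FPKM (SD, n = 5 each, limma adjusted p = 0.539), and female 2 was above 4 of the 5 males. Neither passed the threshold.

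*Mki67*, the antigen used to stain cycling cells, did not separate the sexes. It was at 2.11, 2.16, 2.65, 3.19 and 2.59 FPKM in males and at 1.82, 3.04, 1.93, 0.847 and 0.935 FPKM in females. Female 2 was above 4 of the 5 males, while the other females were below all of them. The log2 fold change was −0.67 (SE 0.31, limma adjusted p = 0.321, exact permutation p = 0.119). *Top2a*, the topoisomerase that untangles chromosomes before they part, was at 2.83, 3.75, 4.42, 4.84 and 3.51 FPKM in males and at 2.27, 3.34, 3.14, 1.41 and 1.64 FPKM in females. Females 2 and 3 lay above male 1 only, and the log2 fold change was −0.74 (SE 0.25, limma adjusted p = 0.162, exact permutation p = 0.0317).

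**Figure D3:**
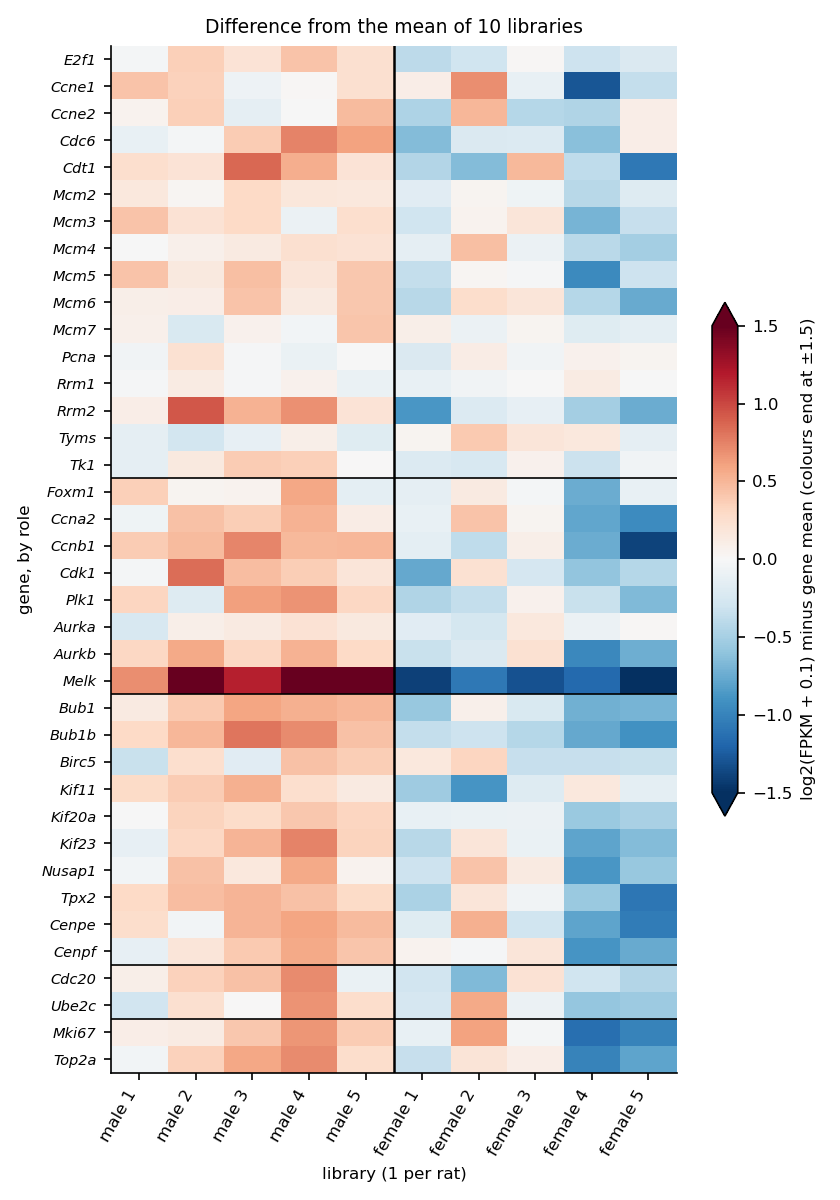
Difference of log2(FPKM + 0.1) from the mean of all 10 libraries for each of 38 members (rows, by role) in each rat (columns), red above and blue below the mean, with colours ending at 1.5 on either side. Males 2 to 5 are mostly red, females 1, 4 and 5 mostly blue, and females 2 and 3 are mixed, while *Melk* follows sex throughout and *Pcna* and *Rrm1* stay pale.

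By level, the order of the members was led by *Pcna*, *Kif11*, *Rrm1* and *Mcm7* in males and by *Pcna*, *Rrm1*, *Kif11* and *Mcm7* in females. *Pcna*, at 45.8 ± 4.19 FPKM in males, against 45.1 ± 3.83 FPKM in females (SD, n = 5), lay far above the rest, and *Kif11* and *Rrm1* in males, at 18.8 ± 1.96 and 17.0 ± 1.02 FPKM, were within their spread of each other. *Cdc6* was the lowest member in both sexes. *Ccnb1* was the 11th of 38 in males and the 14th in females. Summed over all 38 members, FPKM was 190.5 to 217.9 in males and 155.6 to 184 in females, a sum in which the few highest members carry most of the weight. The spread between rats was wider in females, with a median coefficient of variation over members of 27.3% against 16.9% in males, beside 20.4% and 16.3% over all genes tested.

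The rats of 1 sex were not alike. Male 4 had the highest value of all 10 libraries for 16 members and male 3 for 10, while female 4 had the lowest for 16, female 5 for 10 and female 1 for 7. The median deviation of the members from their 10-library mean on the log2 scale was 0.08 in male 1, 0.24 in male 2, 0.38 in male 3, 0.47 in male 4 and 0.26 in male 5. In females it was −0.29, 0.04, −0.03, −0.57 and −0.49 for females 1 to 5. Male 1 and female 2 thus lay close to each other, and females 4 and 5 lay farthest below. Counted per female, 30 members were below all males in female 1, 17 in female 2, 19 in female 3, 32 in female 4 and 28 in female 5. The share of all genes below all males in each female is not at hand, so these counts only compare the females. Female 2, the library with urothelial markers, was the highest of the females for 22 members. The median deviation over all genes tested lay between −0.002 and 0.01 in each library. The median-ratio scale of the deposited FPKM fixes this value in advance, so it says nothing on shifts of whole libraries.

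Some markers of other cell types also had lower means in females. The 7 fibroblast markers summed to 264.5 to 350.9 FPKM in males, against 86.5 to 248.4 FPKM in females, and all 7 had lower means in females. *Col3a1*, a collagen of the interstitium, passed the adjusted test at a difference of −1.14 on the log2 scale (limma adjusted p = 0.0477), and 3 of the 7 had separate ranges. Over all genes tested, 1.14% passed as lower and 2.6% had separate ranges with females lower. The 8 macrophage markers summed to 170.2 to 333.7 FPKM in males, against 83.6 to 224.5 FPKM in females, 7 had lower means in females and none passed the adjusted limma test, with 2 at an unadjusted p of at most 0.05. Of the markers of injured tubule, 8 of the 9 that passed the filter had lower means in females, with sums of 4350 to 8121 FPKM in males, against 1374 to 6747 FPKM in females, a sum of which *Spp1* alone made 64.6% to 86.3% in each library. Of these markers *Sox9* passed (log2 fold change −1.27, limma adjusted p = 0.0359). Female 4, which had the lowest value of 16 members, also had the lowest sums for fibroblasts, macrophages, injured tubule and T cells. The 6 T cell markers summed to 11.6 to 29.6 FPKM in males, against 4.92 to 25.5 FPKM in females, and all 6 had lower means in females with none at an unadjusted limma p of at most 0.05. Male 4, highest for 16 members, had the lowest fibroblast sum of the males, and male 5 the highest macrophage sum. Among the injured tubule markers, male 4 had the most *Havcr1* (104.9 FPKM) and *Sox9* (27.99 FPKM) of all libraries. It had the least *Vcam1*, *Krt8* and *Krt18* of the males. The part of these cells in the difference in cell cycle genes was not tested.

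All 4 B and plasma cell markers had lower means in females, with a median log2 fold change of −1.24. They summed to 4.43 to 16 FPKM in males, against 17.5 FPKM in female 2 and 0.923 to 3.9 FPKM in the other females, all below the lowest male. Neutrophil markers summed to 0.570 to 13.0 and 0.619 to 3.87 FPKM with *Mpo* at 3 reads or fewer throughout, and erythroid markers to 21.1 to 125 and 12.3 to 131 FPKM. None of their genes passed the adjusted limma test, and 2 had an unadjusted p of at most 0.05. Endothelial markers summed to 102.3 to 131.8 FPKM in males, against 102.5 to 152.6 FPKM in females, and none had an unadjusted limma p of at most 0.05. Of the nephron, *Cubn* of the proximal tubule and *Avpr2* of the collecting duct were higher in females (limma adjusted p = 0.0467 and 0.0469), and among the proximal tubule, thick ascending limb, distal convoluted tubule, collecting duct and podocyte markers no gene passed as lower. All 6 collecting duct markers had higher means in females, with sums of 216.4 to 319.7 FPKM in males, against 261.1 to 371.9 FPKM in females. Means were also higher in females for all 3 markers of the thick ascending limb, both measured markers of the distal convoluted tubule and all 5 podocyte markers. Of the proximal tubule, 3 of 6 markers had lower means in females, among them *Slc22a6* and *Aqp1* (exact permutation p = 0.0159 and 0.0317, neither past the adjusted limma test). The proximal tubule markers summed to 1667 to 2832 FPKM in males, against 1419 to 2891 FPKM in females.

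**Figure D4:**
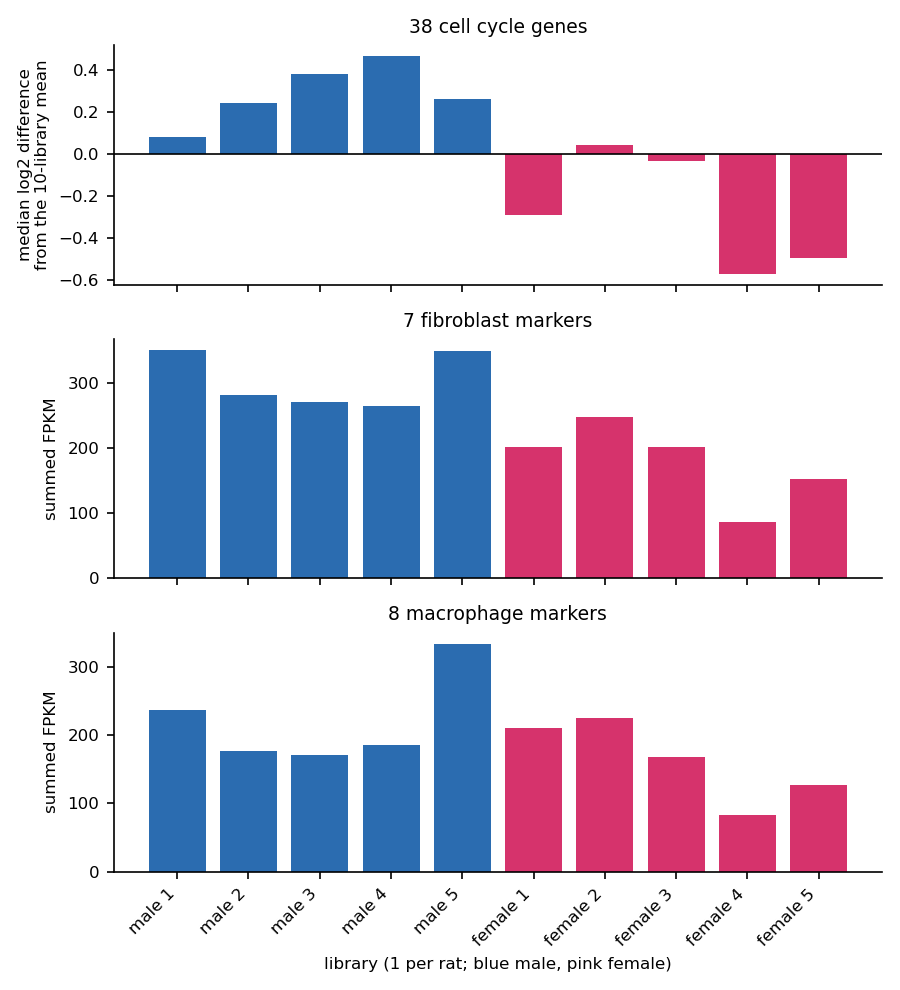
Per rat, from top to bottom, the median log2 difference of the 38 members from their 10-library mean, the summed FPKM of 7 fibroblast markers and the summed FPKM of 8 macrophage markers, males in blue and females in pink. Female 4 is lowest in each panel, while male 4 is highest for the members (0.47) and lowest of the males for fibroblast markers (264.5 FPKM).

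Other genes of the cycle, outside the members, were read from lists by role. Of 63 further mitosis genes, 59 had lower means in females, 5 passed the adjusted test (against 1.14% of genes tested that passed as lower) and all 5 were lower, with a median log2 fold change of −0.59. The largest was *Kifc1*, a kinesin that focuses spindle poles, at 7.94 ± 0.476 FPKM in males, against 3.15 ± 0.756 FPKM in females (SD, n = 5, log2 fold change −1.34, limma adjusted p = 0.00116). *Ect2*, the activator of RhoA in cytokinesis, had a log2 fold change of −1.31 and *Spc24*, of the outer kinetochore, one of −0.98 (limma adjusted p = 0.00412 and 0.0123). *Arhgap11a*, a RhoGAP of dividing cells, had a difference of −0.80 on the log2 scale (limma adjusted p = 0.0212). *Stmn1* (stathmin), which takes microtubules apart and is also made outside the cycle, was at 62.0 ± 1.64 and 43.5 ± 5.51 FPKM (SD, n = 5 each, log2 fold change −0.52, limma adjusted p = 0.00911). Ranges were separate for 12 of the 63 with females lower and for *Cenpn* with females higher, against 2.6% and 2.5% of genes tested.

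Of 48 further rows of replication genes, none passed the adjusted limma test in either direction, and the median log2 fold change was −0.17 with 35 lower in mean level in females. Ranges were separate with females lower for 4 of the 48 (against 2.6% of genes tested), and the exact permutation test gave an unadjusted p of at most 0.05 for 10 that were lower and 1 that was higher (against 7.38% and 7.45%). At an unadjusted limma p of at most 0.05 there were 8 of 48, and over all genes tested 2775 of 17631. The lowest p were those of *Tipin*, of the replication fork, higher in females by 0.39 on the log2 scale, and *Gins1*, of the helicase complex, at −0.49 (limma adjusted p = 0.120 and 0.168). The genes that lead into the cycle had a median near that of all genes. Of 25 G1 cyclins, kinases and Rb-E2F factors, none passed the adjusted limma test, 3 had an unadjusted limma p of at most 0.05, 17 had lower means in females and the median log2 fold change was −0.09. Cyclin D1 (*Ccnd1*), *Cdk2* and *Cdk4* had log2 fold changes of −0.16, −0.04 and −0.18 (limma adjusted p = 0.643, 0.902 and 0.509), and *E2f6* and *Ccnd3*, with the lowest p, had 0.30 and 0.19 (0.160 and 0.240). *E2f8*, the other gene at an unadjusted limma p of at most 0.05, had −0.95 (limma adjusted p = 0.272). *Mybl2*, which encodes B-Myb, had −0.41 (limma adjusted p = 0.334).

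Brakes of the cycle did not pass either. Of 18 inhibitors and other brakes, 12 had lower means in females, 3 had an unadjusted limma p of at most 0.05 and the median log2 fold change was −0.16. *Cdkn1a* (p21) and *Cdkn1b* (p27), which hold cyclin-dependent kinases back, had log2 fold changes of −0.16 and 0.02 (limma adjusted p = 0.615 and 0.941). *Cdkn2c* (p18) had −0.66 and *Btg2*, an early response gene that slows division, −1.02, with limma adjusted p of 0.203 and 0.163. Of 11 checkpoint and Cdc25 genes, 10 had lower means in females, with a median log2 fold change of −0.35. None passed the adjusted limma test, and 3 had an unadjusted limma p of at most 0.05, in both directions. At an unadjusted exact permutation p of at most 0.05, 4 were lower and 1 was higher, against 7.38% and 7.45% of genes tested. *Cdc25a*, the phosphatase that releases CDK2, was the one with a higher mean in females (log2 fold change 0.35, limma adjusted p = 0.141), and *Chek2*, a checkpoint kinase, had −0.35 (limma adjusted p = 0.288).

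**Figure D5:**
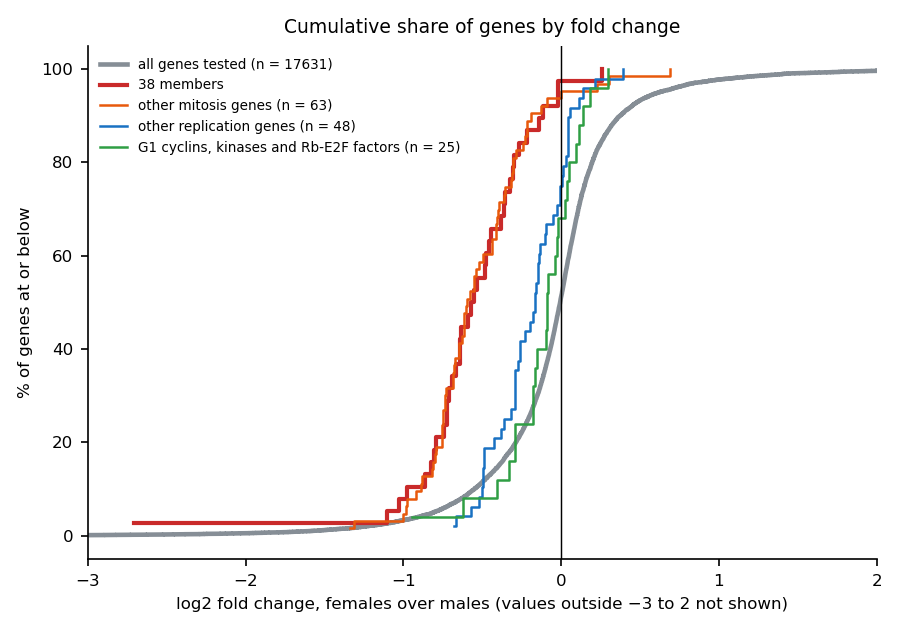
Cumulative share of genes (%) by log2 fold change of females over males for all 17631 genes tested, the 38 members and lists of other mitosis, other replication and G1 genes, within −3 to 2. The curves of the members and of 63 other mitosis genes lie to the left of that of all genes, with medians of −0.56 and −0.59, while the replication (−0.17) and G1 (−0.09) curves lie nearer to it.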

How the data were processed

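RNA-seq of renal cortex from 5 male and 5 female PCK rats was used, 1 library per rat, grouped by the sex in the labels. The authors deposited 1 table of FPKM per gene, made from reads mapped to Rnor_6.0. The submitters' processing notes name fastp, HISAT2 2.0.5, StringTie 1.3.3b and featureCounts 1.5.0-p3. The strand setting is not given in the sources used here. The authors tested counts with DESeq2, and those counts were not used here. Their table of FPKM already lies on a median-ratio scale (factor 1.01 in each library), and multiplying by the gene length and the library factor gave whole reads for all values within 0.05 of a read. Libraries held 13912569 to 20285911 reads on genes, which limits the precision of members with few reads.

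The deposited FPKM were tested with limma (3.58.1, R 4.3.3; lmFit, eBayes with trend) on log2(FPKM + 0.1), with 17631 genes kept at a mean FPKM of 0.1 or more, with sex as the only term and Benjamini-Hochberg adjustment over all of them. Fold changes on this scale understate those of low genes. A two-sided exact permutation test on mean FPKM over 252 splits was run for single genes. Its p is unadjusted. Other steps used Python (3.11.15), scipy (1.17.1), numpy (2.4.6) and pandas (2.3.3). Both tests were tested on simulated data.

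The members and the lists of other genes and cell type markers were chosen with earlier results of these data known. Members are given by library when they passed the adjusted test, had separate ranges, or were *Mki67*, *Top2a*, *Pcna*, *Cdk1*, *Ccnb1* or *E2f1*. From each list of other cell cycle genes, those that passed are named, or else the 2 with the lowest p, and *Cdkn1a*, *Cdkn1b*, *Ccnd1*, *Cdk2* and *Cdk4*. Marker genes, *Cenpn*, *E2f8* and *Mybl2* were named after their values were seen. Alternatives were eBayes made robust or run without trend, quantile, total-read and median-ratio scaling, a filter at 1 FPKM or none, a pseudocount of 0.01 or 1, limma-voom on the recovered reads, the replicate number as a block, and leaving out each library. Promoters were RefSeq windows on GRCr8. Positions of genes are on Rnor_6.0.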

Additional observations from a re-analysis of the deposited data

Results flagged for a closer look

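In 112 groups of 5 rats (56 genes by sex), Dixon's test at the 95% level marked 3 single libraries, where about 1 in 20 would be marked by chance. *Pcna* in male 2 was at 52.9 FPKM, with the other males at 42.1 to 45.2 FPKM. *Aurka* in male 1 was at 2.25 FPKM, below the other males at 2.88 to 3.13 FPKM. *Ccnd1* in female 1 was at 61.0 FPKM, above the other females at 40.1 to 43.4 FPKM.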

How the results depend on the processing

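No member passed the adjusted test as higher in females under any of the alternatives, and the median log2 fold change of the members stayed between −0.68 (limma-voom) and −0.36 (pseudocount of 1), and between −0.65 and −0.46 when single libraries were left out. The number of members that passed the adjusted test moved more. It was 4 as reported, 10 with limma-voom on recovered reads (which called 1.8% of all genes lower), 2 with a log2 fold change of at least 1 required, and 2 to 6 without 1 library (2 without female 1, male 2, male 3 or male 4, and 6 without female 2 or female 3). The 10 were *Rrm2*, *Ccnb1*, *Cdk1*, *Aurkb*, *Melk*, *Bub1*, *Bub1b*, *Kif11*, *Kif20a* and *Tpx2*. Separate ranges held for 9 members as reported and for 9 to 14 without 1 library, the 14 being without female 2 (2.92% to 4.51% of all genes). They held for 8 with quantile normalization and 12 with scaling to total reads. The share of all genes under these scalings is not at hand, so the move cannot be read as one of the members. *Melk* passed under all 21 alternatives (adjusted p of 3.12e-05 to 0.00318) and *Bub1b* under 19 of the 20 that kept it, while *Rrm2* passed under 14 and *Bub1* under 10 of 21. *Ccnb1* passed under 7. Of the members, only *Pcna* and *Rrm1* changed sign under any alternative. With the replicate number as a replicate block, 3 members passed (*Melk*, *Rrm2* and *Cdk1*), against 0.635% of all genes called lower. Deviations of same-numbered rats correlated at −0.0975 to 0.0708, and 1 library was closest to its own number, so the numbers were not taken to pair the rats. The cause of these changes was not tested.

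Members with few reads, such as *Ccne1* with 6 to 27 per library, carry wide counting error, and PCR copies were not told apart by molecular identifiers. P-values measure the spread between these rats, which share 2 litters.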
